A study of Mus musculus with 12 samples.

Results

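Averaged over both media, mitochondrially encoded subunits of the respiratory chain were higher in NG2/CSPG4 knockout than in wild type cells. Most nuclear encoded subunits of the same complexes did not pass the test. Grouped by library title, 13 of 13 mitochondrial genes passed between genotypes in serum-free medium and 0 of 13 in serum medium. Of all genes tested, 13.3% and 18.9% were called higher in these comparisons. The difference between genotypes in the change with medium passed for 1 of 13. With the knockout libraries grouped by the treatment entry of their labels, nearly all passed in serum medium and hardly any in serum-free medium. The genes examined are the protein subunits of oxidative phosphorylation, chosen by name from the deposited gene table. A gene was taken when its name was that of a mitochondrially encoded subunit (mt-Nd, mt-Co, mt-Cytb or mt-Atp) or of a nuclear subunit (Ndufa, Ndufb, Ndufc, Ndufs, Ndufv, Sdha to Sdhd, Uqcr, Cox4 to Cox8 or Atp5). Of 31075 genes in the table, 111 had such a name. Of these, 12 carried the pseudogene suffix and 4 (Cox7a1, Cox7b2, Cox8b and Ndufs6b) did not reach 10 counts in 3 of 12 libraries. The remaining 95 genes comprised 13 mitochondrially and 82 nuclear encoded members. All 95 were among the 19118 genes tested. Of the 82 nuclear members, 75 are called standard subunits here, a label that includes accessory subunits. The other 7 were the tissue-restricted isoforms Cox4i2, Cox6a2, Cox6b2 and Ndufa4l2, the supercomplex factor Cox7a2l, and the processed pseudogenes Cox6c2 and Ndufb4c.

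The cells were primary fibrochondrocytes from the mandibular condylar cartilage of pups aged 10 to 14 days. Wild type (WT) cells came from C57BL/6J mice. Knockout (KO) cells had Cspg4 deleted by a reporter-tagged allele, made from the knockout-first allele Cspg4tm1a(KOMP)Wtsi/Bcm with a Cre line and backcrossed to C57BL/6J. Norm denotes AMEM with heat-inactivated fetal bovine serum and Opti denotes Opti-MEM with no serum added, so basal medium and serum changed together and cannot be told apart. The 4 groups, WT_Norm, WT_Opti, KO_Norm and KO_Opti, held 3 libraries each. RNA was collected at passage 4 according to the labels, while the methods of the study describe primary cells at a lower passage. The study calls its replicates biological, but the labels do not state separate animals or cultures, and the p-values therefore cover only how much these libraries varied. In the 6 KO libraries the medium named in the title is not the one in the treatment entry. Libraries were grouped by title, and the comparison within WT and the comparison of KO with WT over both media are the same under either reading.

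The respiratory chain sits in the inner mitochondrial membrane. Complexes I and II take electrons from NADH and succinate, complex III passes them to cytochrome c, complex IV reduces oxygen, and complex V (ATP synthase) uses the resulting proton gradient to make ATP. Mitochondrial DNA encodes a few hydrophobic core subunits of complexes I, III, IV and V, which POLRMT and TFAM transcribe as long precursors from each strand. The remaining subunits, and the whole of complex II, are encoded in the nucleus and imported. Here complex I had 7 mitochondrially and 36 nuclear encoded members, complex II 0 and 4, complex III 1 and 8, complex IV 3 and 17, and complex V 2 and 17. In whole-culture RNA, fewer cells of a type and less RNA per cell cannot be told apart.

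Several mitochondrial messages share their sequence with a nuclear copy, which bears on how their counts are read. On chromosome 1 the reference annotation lists 7 pseudogenes that lie on the minus strand and repeat mitochondrial genes. Of the aligned pairs, 6 had no mismatch. Gm10222, at chr1:24612407-24612700 (GRCm38), was identical over its whole length of 294 bases to mt-Nd4l, a complex I subunit gene. This run is shown because no read that falls inside it can be assigned to one locus by sequence. It covers chrMT:9877-10170 on the plus strand.
mt-Nd4l: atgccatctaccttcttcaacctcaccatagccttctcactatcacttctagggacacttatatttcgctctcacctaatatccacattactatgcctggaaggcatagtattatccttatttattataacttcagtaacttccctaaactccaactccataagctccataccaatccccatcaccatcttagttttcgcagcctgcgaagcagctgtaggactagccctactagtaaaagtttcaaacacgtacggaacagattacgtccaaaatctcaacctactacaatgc

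Gm29216 repeats the last part of mt-Co1, the catalytic subunit of complex IV, and differed at 1 of 483 aligned bases. The windows around that base are shown, with the differing base in capitals. The first is chrMT:6390-6433 on the plus strand and the second chr1:24616145-24616188 on the minus strand.
mt-Co1: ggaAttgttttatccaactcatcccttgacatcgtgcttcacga
Gm29216: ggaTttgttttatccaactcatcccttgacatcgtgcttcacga

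For the 5 pairs in which the copy spans nearly the whole gene (mt-Nd3, mt-Nd4l, mt-Co2, mt-Co3 and mt-Atp6), the copy held 0.947 to 1.07 counts for each count of the mitochondrial gene in every library. For mt-Nd4 and mt-Co1, whose copies are shorter, the ratio ran from 0.314 to 0.373 and from 0.0697 to 0.135. In the 5 pairs the copy moved with the mitochondrial gene, and a count in one cannot be separated from a count in the other. In mt-Nd4 and mt-Co1 this limit covers at most the stretch that aligns, bases 1 to 876 of 1378 and 1063 to 1545 of 1545. From WT_Norm replicate 2 to replicate 3, mt-Co1 went from 333767 to 228730 counts and Gm29216 from 23327 to 30983. The 6 remaining genes (mt-Nd1, mt-Nd2, mt-Nd5, mt-Nd6, mt-Cytb and mt-Atp8) had no listed copy. The chromosome 1 segment between the copies of mt-Co2 and mt-Atp6, where a copy of mt-Atp8 would lie, was not examined.

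The libraries held 51546504 (WT_Norm replicate 3) to 71448484 (KO_Opti replicate 3) gene counts. Cspg4, the deleted gene, was at 114 to 216 CPM (counts relative to the library total, scaled with TMM factors) in the 6 WT libraries and at 10.5 to 16.6 CPM in the 6 KO libraries (exact permutation test, two-sided p = 0.00216, the smallest 6 against 6 libraries can give). Of the fibrochondrocyte and cartilage markers, Col1a1 and Sox9 were abundant in all libraries, while Acan was at 62.7 to 69.2 CPM in WT_Norm and 1.19 to 2.41 CPM in WT_Opti. Summed fibrochondrocyte and cartilage markers (12 of 12 genes present, with Col1a1 among the most abundant) were at 121930 to 134459 CPM in WT_Norm, 88988 to 102008 CPM in WT_Opti, 60789 to 80323 CPM in KO_Norm and 32775 to 47138 CPM in KO_Opti, with no overlap between groups. Summed myeloid markers (6 of 6) were at 180 to 212 CPM in KO_Opti and at 443 to 1006 CPM in the other groups. Summed mural markers (4 of 4) were at 30.2 to 56.1 CPM in the 6 WT libraries and at 9.27 to 17.6 CPM in the 6 KO libraries, with no overlap. Markers of 4 other cell types were high in 1 or 2 of the WT_Norm libraries. Summed epithelial markers (4 of 4 genes present) were at 32.1, 141 and 0.798 CPM in WT_Norm and at 1.07 to 5.47 CPM in the other groups. Summed cardiac muscle markers were at 10.4, 25.1 and 1.08 CPM in WT_Norm and at 0.709 to 2.63 CPM in the other groups. Summed glial and neuronal markers (5 of 5) were at 77.7, 54.9 and 301 CPM in WT_Norm and at 37.8 to 63.8 CPM elsewhere. Summed endothelial markers (5 of 5) reached 36.5 CPM in WT_Norm replicate 2 and were at 0.563 to 3.47 CPM in all others. Their part in the results below was not tested.

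Mitochondrial messages were far more abundant per length than nuclear ones. By FPKM, which scales counts by transcript length and library size, mt-Co1 had the highest group mean of the 13 (2714 FPKM in WT_Norm) and mt-Nd3 the lowest (137 FPKM). The 75 standard nuclear subunits had a median group mean of 23.6 FPKM in WT_Norm, from 2.03 FPKM for Ndufb2 to 162 FPKM for Cox6a1. The 13 mitochondrial genes together took 1.39, 1.43 and 1.44% of all counts in WT_Norm, 1.25, 1.41 and 1.49% in WT_Opti, 1.38, 2.83 and 1.73% in KO_Norm, and 5.69, 2.12 and 2.89% in KO_Opti. All 3 KO_Opti libraries lay above every WT library, and KO_Norm replicate 1 lay inside the WT range. The 82 nuclear genes took 0.479% ± 0.0565 (SD, n = 3) of counts in WT_Norm, 0.459% ± 0.0334 in WT_Opti, 0.499% ± 0.0599 in KO_Norm and 0.556% ± 0.0700 in KO_Opti, so the 4 groups overlapped. Mean log2 CPM of the mitochondrial genes exceeded that of the nuclear genes by 4.25 ± 0.19 (SD, n = 3) in WT_Norm and 4.31 ± 0.04 in WT_Opti, and by 4.74 ± 0.35 in KO_Norm and 5.26 ± 0.45 in KO_Opti. Every KO library had a larger difference than every WT library. In KO_Norm replicate 1 this came with a low nuclear mean (4.76), the lowest of the 12 libraries. Its mitochondrial mean (9.31) lay inside the WT range of 9.13 to 9.61. Against the 75 standard nuclear subunits alone, the gap between genotypes was narrow. The smallest KO difference was then 4.19 (KO_Norm replicate 3), and the largest WT difference was 4.15 (WT_Norm replicate 2).

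**Figure D1:**
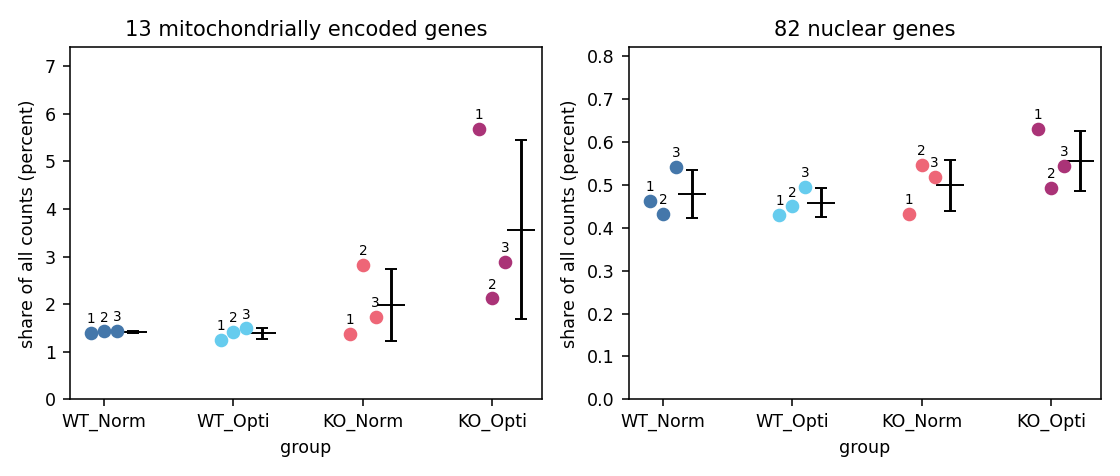
Share of all gene counts (percent) taken by the 13 mitochondrially encoded genes (left) and the 82 nuclear genes (right) in each library, by group. Points are libraries numbered by replicate, and bars are the mean and SD of 3. KO_Opti replicate 1 (5.69%) and KO_Norm replicate 2 (2.83%) had the highest mitochondrial shares of their groups, and the nuclear shares overlapped between groups.

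Averaged over both media, KO had higher mitochondrial messages of every complex that has them. Within titles, 13 of 13 genes were called higher in KO_Opti against WT_Opti and 0 of 13 in KO_Norm against WT_Norm. Of all genes, 13.3% and 18.9% were called higher in these comparisons. Over both media, 12 of 13 mitochondrial genes rose in KO against WT, where 18.0% of all genes tested were called higher, and 0 fell. Their log2 fold changes ran from 0.48 to 1.0 with a median of 0.83, against 0.01 over all genes tested. mt-Co1 was at 5131, 5268 and 4934 CPM in WT_Norm, 4258, 4941 and 5171 CPM in WT_Opti, 5088, 8872 and 5753 CPM in KO_Norm and 17151, 6555 and 8918 CPM in KO_Opti. The WT groups lay close together, and KO_Norm replicate 1 overlapped them. Over both media mt-Co1 rose (log2 fold change 0.77 ± 0.21 (SE), edgeR adjusted p = 0.0118). The fibrochondrocyte and mural marker sums were lower in every KO library than in every WT library. By gene over both media, 5 of 12 fibrochondrocyte markers were called higher and 6 lower, and 0 and 1 of 4 mural markers. Of all genes, 18.0% were called higher and 16.0% lower. The part of these markers in the mitochondrial difference was not tested.

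mt-Nd1, the complex I subunit next to the quinone site, had the largest change (log2 fold change 1.0 ± 0.24 (SE), edgeR adjusted p = 0.0061). It was at 1280.0, 1432 and 1381 CPM in WT_Norm, 873, 983 and 1093 CPM in WT_Opti, 1228, 3051 and 1757 CPM in KO_Norm and 4212, 1617 and 2175 CPM in KO_Opti. mt-Nd6 is the one gene of the set read from the other strand, and it was at 253, 304 and 307 CPM in WT_Norm, 255, 292 and 338 CPM in WT_Opti, 254, 745 and 402 CPM in KO_Norm and 1002, 395 and 518 CPM in KO_Opti. mt-Nd6 also rose (log2 fold change 0.90 ± 0.26 (SE), edgeR adjusted p = 0.0158). Whether the counting used strand is not stated, so its counts may include reads from the opposite strand. mt-Cytb, the only mitochondrially encoded subunit of complex III, rose (log2 fold change 0.77 ± 0.22 (SE), edgeR adjusted p = 0.0186). The complex V subunits mt-Atp6 and mt-Atp8 rose by 0.83 and 0.89 on the log2 scale. mt-Nd3 did not pass (0.48, edgeR adjusted p = 0.164), and its highest WT library, WT_Norm replicate 3 at 91.2 CPM, exceeded all but 1 KO library.

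Genes with and without a listed nuclear copy were both called higher in KO. The 5 genes outside the chromosome 1 segment (mt-Nd1, mt-Nd2, mt-Nd5, mt-Nd6 and mt-Cytb) were all called higher, with log2 fold changes of 0.77 to 1.0. Of the 7 genes with a copy, 6 were called higher, at 0.48 to 0.93 including mt-Nd3. The copies themselves were called higher in 5 of 7 cases. Of 23 mitochondrial tRNA and rRNA entries tested, 12 rose and 2 fell. mt-Ta, the tRNA for alanine, was at 2.02 ± 0.32 and mt-Tl1, a leucine tRNA, at 1.70 ± 0.24 (log2 fold change and SE). The rRNAs mt-Rnr1 (0.38, edgeR adjusted p = 0.417) and mt-Rnr2 (0.60, edgeR adjusted p = 0.145) did not pass. The libraries were made from poly(A) RNA, so tRNA and rRNA counts are of the fraction that this selection kept.

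**Figure D2:**
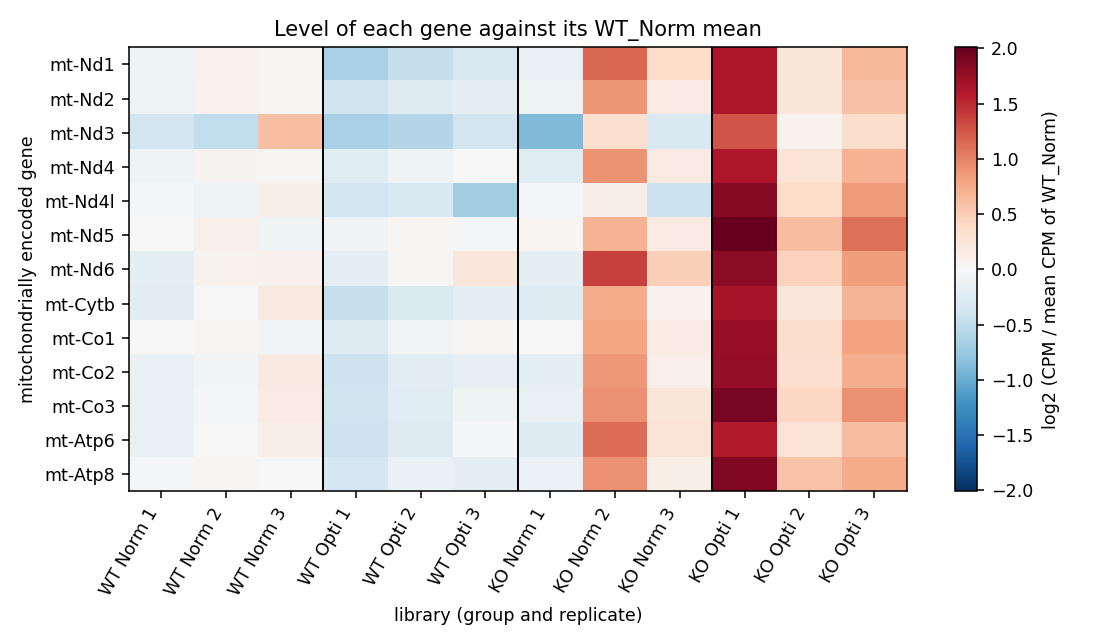
Level of the 13 mitochondrially encoded genes (rows) in each of 12 libraries (columns), as log2 of CPM over the mean CPM of the 3 WT_Norm libraries. Red is higher and blue lower. KO_Opti replicate 1 and KO_Norm replicate 2 were high across the genes, whereas KO_Norm replicate 1 was close to WT.

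The KO libraries differed among themselves, and 2 of them stood highest. KO_Opti replicate 1 was above the mean of the other 2 libraries of its group by a median of 1.17 on the log2 scale over the 13 genes, and KO_Norm replicate 2 by 0.91. With both left out, 9 of 13 genes still passed over both media, with a median of 0.39. Leaving out 1 library at a time gave 10 to 13 genes and medians of 0.57 to 0.95. KO_Norm against WT_Norm gave 0 of 13 mitochondrial genes past the threshold in the edgeR test (median 0.36), and 0 of 13 also in DESeq2, where 18.9% of all genes were called higher by edgeR. No gene of the 13 had an unadjusted edgeR p under 0.05 in this comparison.

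In KO_Opti against WT_Opti all 13 mitochondrial genes rose, where 13.3% of all genes were called higher. Their log2 fold changes were 1.09 to 1.61 with a median of 1.29. The KO_Opti and WT_Opti libraries did not overlap for any of the 13, nor for 22 of 82 nuclear members. The share of all genes without overlap was not computed. The fibrochondrocyte and myeloid marker sums were lowest in KO_Opti, as given above. By gene, 5 of 12 fibrochondrocyte markers were called higher and 5 lower, and 0 and 6 of 6 myeloid markers. Of all genes, 13.3% were called higher and 14.9% lower. The part of these markers in the mitochondrial difference was not tested. mt-Nd4l was at 150.0, 141 and 164 CPM in WT_Norm, 116, 122 and 93.4 CPM in WT_Opti, 147, 165 and 113 CPM in KO_Norm and 539, 197 and 276 CPM in KO_Opti, and had the largest change (log2 fold change 1.61 ± 0.29 (SE), edgeR adjusted p = 0.00108). Without KO_Opti replicate 1, 9 genes passed and the median was 0.78. Without WT_Opti replicate 1 or replicate 2, 9 passed as well. With KO libraries grouped by the treatment entry, 1 of 13 passed against WT_Opti and 12 of 13 against WT_Norm. Which entry names the medium used cannot be told apart here.

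In WT cells, calls for mitochondrial messages between media depended on which groups were in the fit. In WT_Opti against WT_Norm, 0 of 13 passed in edgeR and 0 in DESeq2, 0 had an unadjusted p under 0.05, and the median log2 fold change was -0.24. In this fit of all groups, 20.3% of all genes were called higher and 19.6% lower. Fitted on the 2 WT groups alone, 4 of 13 were called lower. The share of all genes called lower in that smaller fit is not given here, so the 4 cannot be set against it. In KO_Opti against KO_Norm, 2 of 13 passed, where 8.39% of all genes were called higher. These were mt-Nd4l (log2 fold change 1.25 ± 0.28 (SE), edgeR adjusted p = 0.00909) and mt-Nd5, a proton-pumping subunit of complex I (log2 fold change 1.03 ± 0.28 (SE), edgeR adjusted p = 0.0205). Without KO_Opti replicate 1, mt-Nd5 was at 0.56 and not called, and its call was also lost without KO_Norm replicate 1 or 3. The count of 2 became 1 without KO_Norm replicate 1, KO_Norm replicate 3 or KO_Opti replicate 1, 5 without KO_Norm replicate 2 and 7 without KO_Opti replicate 2. The difference between genotypes in the change with medium passed for 1 of 13, mt-Nd4l (log2 fold change 1.71 ± 0.40 (SE), edgeR adjusted p = 0.00592), where 14.4% of all genes had a positive difference past the threshold. This count was 2 without WT_Norm replicate 1 or 2, 8 without KO_Norm replicate 2 or without KO_Opti replicate 2, and 10 without KO_Norm replicate 2 and KO_Opti replicate 1. With the treatment entry, the direction of both knockout comparisons turned for mt-Nd4l (-1.25 between the KO groups and -0.79 for the difference between genotypes).

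Nuclear subunits included more lower than higher members in Opti within WT. In WT_Opti against WT_Norm, 20 of 82 nuclear members fell and 2 rose, where 19.6% of all genes were called lower and 20.3% higher. Their median log2 fold change was -0.28, against -0.01 over all genes tested. Scaling by library size alone moved the median of all genes from -0.01 to 0.14 and gave 12 lower and 8 higher members with a median of -0.13. With FPKM values 8 were lower and 8 or 9 higher, with a median of -0.03 where that of all genes was 0.08 or 0.18. The nuclear members thus lay below the median of all genes under each scaling, while the count called lower depended on it.

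Complex IV (cytochrome c oxidase) had 4 of 11 standard nuclear subunits lower and 0 higher, with a median of -0.62. Complex V had 5 of 17 lower, complex III 2 of 8, complex I 5 of 35 standard subunits and complex II 1 of 4, with 0 higher in each. Uqcr11, a small subunit of complex III, was at 20.6, 19.8 and 43.4 CPM in WT_Norm, 10.9, 11.2 and 12.4 CPM in WT_Opti, 11.4, 18.1 and 15.7 CPM in KO_Norm and 16.3, 13.4 and 14.7 CPM in KO_Opti. Its WT_Norm libraries did not overlap the WT_Opti libraries, and WT_Norm replicate 3 was the highest of all. Uqcr11 fell (log2 fold change -1.28 ± 0.26 (SE), edgeR adjusted p = 0.00194), and was at -0.83 without WT_Norm replicate 3, still past the threshold. Cox6b1, a subunit of complex IV that faces the intermembrane space, fell to 37.4 ± 1.53 CPM (SD, n = 3) from 77.9 ± 31.3 CPM (SD, n = 3) (log2 fold change -1.06 ± 0.25 (SE), edgeR adjusted p = 0.00477). Ndufa3 of complex I fell (log2 fold change -1.15 ± 0.32 (SE), edgeR adjusted p = 0.0121), and was at -0.58 without that library. Atp5k, a membrane subunit of ATP synthase that takes part in dimers, was called lower (-1.45, edgeR adjusted p = 0.0299), but WT_Norm replicate 3 was at 28.5 CPM beside 9.01 and 5.22 CPM, and without it the value was -0.47 with an edgeR adjusted p of 0.269.

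In complex II, 1 of 4 subunits passed the test. Sdhd, a membrane anchor of succinate dehydrogenase, lies at chr9:50596357-50603812 and was at 78.7, 78.3 and 76.1 CPM in WT_Norm, 50.9, 51.5 and 53.0 CPM in WT_Opti, 59.1, 61.6 and 62.4 CPM in KO_Norm and 69.7, 62.7 and 61.5 CPM in KO_Opti. The WT_Norm libraries were the highest, the WT_Opti libraries the lowest, and the KO libraries lay between with no overlap. Sdhd fell with Opti in WT (log2 fold change -0.59 ± 0.08 (SE), edgeR adjusted p = 4.78e-05), and was lower in KO_Norm than in WT_Norm (log2 fold change -0.35 ± 0.07 (SE), edgeR adjusted p = 0.00312) but higher in KO_Opti than in WT_Opti (log2 fold change 0.32 ± 0.07 (SE), edgeR adjusted p = 0.00658). The difference between genotypes in the response to medium was 0.67 ± 0.11 (edgeR adjusted p = 0.00046). With FPKM values the call for KO_Norm was lost. The catalytic flavoprotein Sdha, the iron-sulfur subunit Sdhb and the other anchor Sdhc passed in none of the 6 comparisons in the edgeR test, with log2 fold changes of -0.24 to 0.16.

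**Figure D3:**
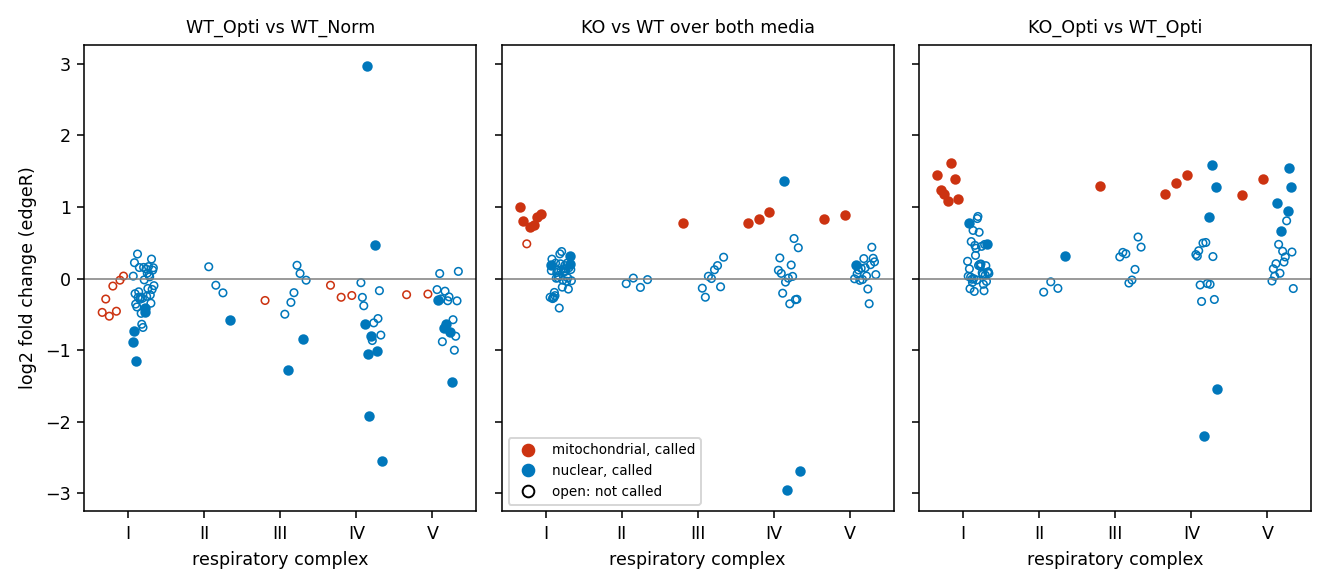
Log2 fold change of each member (edgeR, y axis) by respiratory complex (x axis) in 3 comparisons. Red points are mitochondrially and blue points nuclear encoded, filled where the adjusted p was under 0.05. Cox4i2, at 0 in all WT_Opti libraries, is not drawn. The mitochondrial genes sit between 0.48 and 1.0 in KO against WT over both media, above most nuclear genes of the same complex.

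Over both media, 5 of 82 nuclear members rose and 2 fell in KO against WT, where 18.0% and 16.0% of all genes were called higher and lower. The median was 0.06. Among the 75 standard subunits 4 rose and 0 fell. Ndufv1, the NADH-binding flavoprotein of complex I, was at 65.5, 59.8 and 61.1 CPM in WT_Norm, 64.8, 66.4 and 71.01 CPM in WT_Opti, 72.7, 81.7 and 79.1 CPM in KO_Norm and 67.3, 75.4 and 72.2 CPM in KO_Opti, and it rose (log2 fold change 0.21 ± 0.06 (SE), edgeR adjusted p = 0.0154). Ndufs8, an iron-sulfur subunit of complex I (0.31, adjusted p = 0.015), Ndufa10 (0.19, adjusted p = 0.0400) and Atp5b, the catalytic beta subunit of ATP synthase (0.20, adjusted p = 0.0255), also rose (edgeR), each by less than the smallest mitochondrial change of 0.48. Ndufa10 and Atp5b lost their calls when single libraries were left out. Scaling by library size alone gave 14 nuclear members higher and 2 lower, and FPKM 13 and 2.

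Nuclear members were also compared between genotypes within each title. In KO_Norm against WT_Norm 12 of 82 fell and 6 rose, with a median of -0.20, where 17.2% and 18.9% of all genes were called lower and higher. In KO_Opti against WT_Opti 11 of 82 rose and 2 fell, with a median of 0.21, where 13.3% and 14.9% of all genes were called higher and lower. The 12 lower and the 11 higher members were thus shares close to or below those of all genes. Cox7b, a small subunit of complex IV, was at 38.5, 38.6 and 60.9 CPM in WT_Norm, 20.8, 21.4 and 26.0 CPM in WT_Opti, 20.9, 41.9 and 37.1 CPM in KO_Norm and 110.1, 34.6 and 59.8 CPM in KO_Opti. All 3 KO_Opti libraries were above the WT_Opti libraries, and KO_Opti replicate 1 was the highest of the 12. Cox7b rose in KO_Opti (log2 fold change 1.58 ± 0.36 (SE), edgeR adjusted p = 0.00559), and was at 0.55 and not called with the treatment entry. Atp5md, a small membrane subunit of ATP synthase, was at 1.54 ± 0.43 (log2 fold change and SE, edgeR adjusted p = 0.0177), but at 0.95 without KO_Opti replicate 1, no longer past the threshold, and its call was also lost without WT_Opti replicate 1 or 2. Without WT_Norm replicate 3 or KO_Norm replicate 1, KO_Norm gave 3 lower members. Without KO_Opti replicate 1, WT_Opti replicate 1 or WT_Opti replicate 2, KO_Opti gave 3 higher members. Scaling by library size alone gave 9 lower and 12 higher members for KO_Norm, and FPKM 4 to 6 lower and 9 higher. With the treatment entry, KO_Norm had 7 lower and 3 higher, and KO_Opti 4 lower and 5 higher.

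In KO_Opti against KO_Norm 1 of 82 nuclear members rose and 4 fell, where 8.39% and 11.0% of all genes did so. The 4 were Ndufa9, Ndufa10, Uqcrc1 (a core subunit of complex III) and Atp5b, with log2 fold changes of -0.29 to -0.42. Atp5e, the epsilon subunit of ATP synthase, was the 1 that rose (log2 fold change 1.28 ± 0.35 (SE), edgeR adjusted p = 0.0238). Without KO_Opti replicate 1, Atp5e was at 0.81 and not called, and leaving out any KO_Norm library also ended its call. Uqcrc1 and Ndufa10 lost theirs without KO_Opti replicate 1 as well. Scaling by library size alone gave 10 higher and 0 lower members, and FPKM 5 or 6 higher and 0 lower. The difference between genotypes in the response to medium passed for 23 nuclear members, positive in 20 and negative in 3, where 14.4% and 17.0% of all genes did so.

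The length of the transcript moved with these nuclear changes. WT_Norm replicate 3 exceeded the mean of the other 2 WT_Norm libraries by a median of 0.71 on the log2 scale over the 47 nuclear members with transcripts of up to 1000 bases, and by 0.09 over the 33 longer ones. KO_Opti replicate 1 exceeded the rest of its group by 0.51 and 0.18. Over all tested genes whose mean reached 1 CPM the same differences were 0.22 and -0.09 for WT_Norm replicate 3 (1149 short and 12835 long genes), and 0.30 and -0.05 for KO_Opti replicate 1. In WT_Opti against WT_Norm, 14 of 47 short members were called lower and 5 of 33 long members. Of all 1149 short genes 184 were called lower. In KO_Norm against WT_Norm the numbers were 11 and 1, and 135 of 1149 short genes. The mitochondrial genes of WT_Norm replicate 3 were 0.15 above the rest of the group by median. The part of transcript length in the calls was not tested. With WT_Norm replicate 3 left out, 9 nuclear members were lower and 3 higher in WT_Opti against WT_Norm, and leaving out WT_Opti replicate 1 or 2 gave 9 lower as well.

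**Figure D4:**
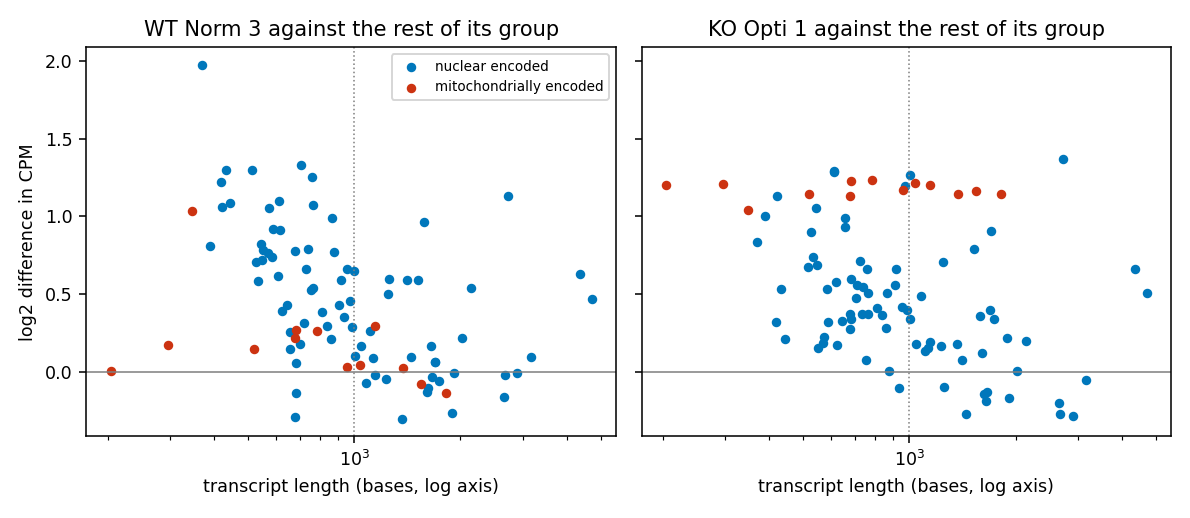
Log2 difference in CPM between WT_Norm replicate 3 (left) or KO_Opti replicate 1 (right) and the mean of the other libraries of its group, against the length of the longest coding transcript in bases on a log axis. Blue points are nuclear and red points mitochondrially encoded members, and Cox4i2 and Cox6c2, which had few counts, are not drawn. Short nuclear members were high in both libraries, with medians of 0.71 and 0.51 up to 1000 bases (dotted line), whereas the mitochondrial genes were at 0.15 and 1.17 by median.

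Tissue-restricted isoforms of complex IV included large differences between groups. Cox6a2, the striated muscle isoform of subunit 6a, was at 0.348, 1.17 and 0.475 CPM in WT_Norm, 5.54, 5.33 and 4.89 CPM in WT_Opti, 4.28, 6.41 and 6.04 CPM in KO_Norm and 5.05, 3.97 and 3.61 CPM in KO_Opti. The WT_Norm libraries stood below all 9 others, with no overlap. Cox6a2 rose with Opti in WT (log2 fold change 2.97 ± 0.37 (SE), edgeR adjusted p = 3.67e-05) and in KO_Norm against WT_Norm (log2 fold change 3.06 ± 0.37 (SE), edgeR adjusted p = 4.50e-05), and KO_Opti against WT_Opti did not pass (-0.32). Its ubiquitous partner Cox6a1 was higher by far in every library, at 142 ± 46.8 CPM (SD, n = 3) in WT_Norm and 91.5 ± 10.8 CPM (SD, n = 3) in WT_Opti, and fell (log2 fold change -0.64 ± 0.19 (SE), edgeR adjusted p = 0.0192). Summed skeletal muscle markers (7 of 8 in the table) went the other way, at 4.33 to 10.3 CPM in WT_Norm and 0.585 to 0.761 CPM in WT_Opti, and Ckm was at 0 in 11 libraries. The gene overlaps Itgad on the other strand. The kit marks strand, but whether the counting used it is not stated.

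Cox6b2, known as the testis isoform of subunit 6b, was at 7.38, 7.10 and 12.4 CPM in WT_Norm, 2.37, 2.39 and 2.34 CPM in WT_Opti, 0.583, 0.840 and 0.617 CPM in KO_Norm and 0.782, 0.362 and 0.411 CPM in KO_Opti. Every WT library was above every KO library, and WT_Norm was above WT_Opti. Cox6b2 fell in KO over both media (log2 fold change -2.95 ± 0.23 (SE), edgeR adjusted p = 1.10e-06) and with Opti in WT (-1.92 ± 0.30, edgeR adjusted p = 0.00027). Ndufa4l2, a paralog of the complex IV subunit Ndufa4 that hypoxia-inducible factor is known to induce, was at 9.40, 14.3 and 14.9 CPM in WT_Norm, 1.17, 2.25 and 3.21 CPM in WT_Opti, 0.329, 1.16 and 1.20 CPM in KO_Norm and 0.697, 0.751 and 0.822 CPM in KO_Opti. The WT_Norm libraries were above all others, and the remaining groups overlapped in part. Ndufa4l2 fell in KO (log2 fold change -2.69 ± 0.31 (SE), edgeR adjusted p = 3.29e-05) and with Opti in WT (-2.54 ± 0.43, edgeR adjusted p = 0.000446). It overlaps Shmt2 on the other strand. Cox4i2, an isoform of subunit 4, was at 0.316, 0.221 and 0.539 CPM in WT_Norm and had 0 counts in all 3 WT_Opti libraries. Against a floor of 3 counts over that group it was at least 23.7-fold higher in WT_Norm. Cox7a2l, which joins complexes III and IV in supercomplexes, was at 103, 107 and 112 CPM in WT_Norm, 136, 147 and 163 CPM in WT_Opti, 105, 128 and 122 CPM in KO_Norm and 151, 131 and 139.7 CPM in KO_Opti. Cox7a2l rose with Opti in WT (log2 fold change 0.47 ± 0.10 (SE), edgeR adjusted p = 0.00218).

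**Figure D5:**
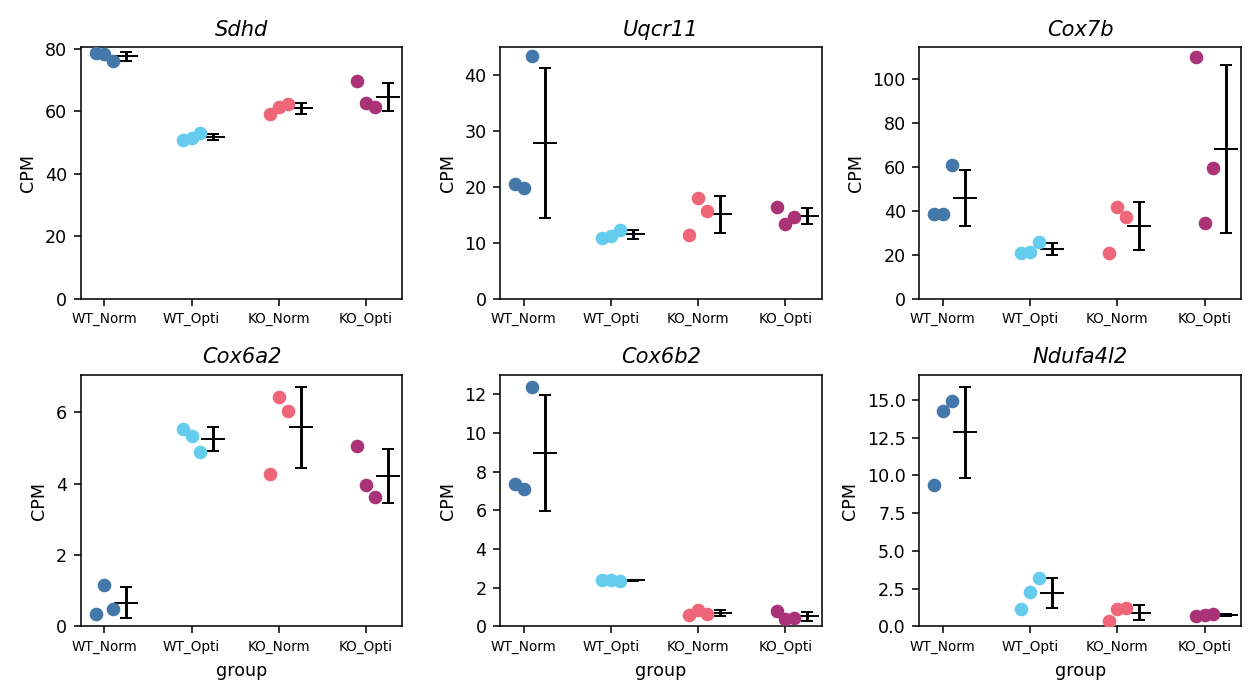
CPM (y axis, from 0) of 6 nuclear members in the 4 groups. Points are libraries, and bars are the mean and SD of 3. Sdhd was highest in WT_Norm and lowest in WT_Opti, Cox6a2 was under 1.2 CPM only in WT_Norm, and Cox6b2 and Ndufa4l2 were highest in WT_Norm.

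Genes that serve the mitochondrial genome were examined beside the subunits. Over all genes tested 20.3% were called higher and 19.6% lower in WT_Opti against WT_Norm, and 18.0% and 16.0% in KO against WT over both media. Of 16 genes of mitochondrial DNA maintenance and transcription, 12 rose and 0 fell in WT_Opti against WT_Norm (median 0.56), and 6 rose and 0 fell in KO against WT over both media (median 0.21). By title, 9 rose and 0 fell in KO_Norm against WT_Norm (median 0.49), where 0 of 13 mitochondrial messages passed. In KO_Opti against WT_Opti, where 13 of 13 passed, 2 rose and 3 fell (median -0.095). Of all genes, 18.9% and 17.2% were called higher and lower in the former, and 13.3% and 14.9% in the latter. The genotype difference in the change with medium passed for 8, all negative, beside 17.0% of all genes. Tfam, the packaging and transcription factor of mitochondrial DNA, was at 19.8, 18.7 and 16.7 CPM in WT_Norm, 25.7, 25.8 and 29.4 CPM in WT_Opti, 24.8, 24.7 and 25.4 CPM in KO_Norm and 26.4, 27.9 and 27.3 CPM in KO_Opti. It rose with Opti in WT (log2 fold change 0.55 ± 0.09 (SE), edgeR adjusted p = 0.000494). Polrmt, the mitochondrial RNA polymerase, was at 23.2, 22.1 and 23.9 CPM in WT_Norm, 22.5, 19.5 and 18.3 CPM in WT_Opti, 30.9, 26.8 and 29.4 CPM in KO_Norm and 31.0, 28.8 and 30.5 CPM in KO_Opti, and rose in KO (log2 fold change 0.46 ± 0.07 (SE), edgeR adjusted p = 0.000287). The mitochondrial DNA polymerase subunit Polg2 rose with Opti in WT (1.89 ± 0.22).

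Of 22 genes of mitochondrial RNA processing and stability, 13 rose and 0 fell in KO against WT, and 9 rose and 2 fell with Opti in WT, beside the same 18.0% and 20.3% of all genes called higher. By title, 13 rose and 1 fell in KO_Norm against WT_Norm, and 5 rose and 2 fell in KO_Opti against WT_Opti. Of all genes, 18.9% and 13.3% were called higher in these comparisons, and 17.2% and 14.9% lower. Lrpprc, which stabilizes mitochondrial mRNAs, was at 36.5, 35.3 and 31.7 CPM in WT_Norm, 69.5, 65.3 and 61.9 CPM in WT_Opti, 81.7, 69.9 and 67.5 CPM in KO_Norm and 59.0, 68.9 and 66.8 CPM in KO_Opti. Lrpprc was low in WT_Norm only, and rose with Opti in WT (log2 fold change 0.93 ± 0.10 (SE), edgeR adjusted p = 1.17e-05) and in KO over both media (log2 fold change 0.53 ± 0.07 (SE), edgeR adjusted p = 9.14e-05). Tbrg4, an RNA-binding protein of the FASTK family, rose in KO (log2 fold change 0.66 ± 0.07 (SE), edgeR adjusted p = 7.89e-06). Elac2, which cuts tRNA 3′ ends from the precursors, fell with Opti in WT (log2 fold change -1.08 ± 0.08 (SE), edgeR adjusted p = 7.21e-07).

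Lonp1, the matrix protease known to degrade TFAM, was at 59.4, 58.8 and 58.6 CPM in WT_Norm, 227, 215 and 215 CPM in WT_Opti, 285, 242 and 247 CPM in KO_Norm and 241, 240.2 and 239 CPM in KO_Opti. The WT_Norm libraries were far below all others. Lonp1 rose with Opti in WT (log2 fold change 1.89 ± 0.08 (SE), edgeR adjusted p = 1.06e-08) and in KO over both media (log2 fold change 1.13 ± 0.06 (SE), edgeR adjusted p = 4.19e-08). In its list of 16 inner membrane proteases and import genes, 4 rose and 4 fell with Opti in WT, and 8 rose and 0 fell in KO. Of all genes, 20.3% were called higher and 19.6% lower with Opti in WT, and 18.0% and 16.0% in KO. Of 46 assembly factors, 9 rose and 2 fell with Opti in WT, and 8 rose and 1 fell in KO, so the higher members were near the 20.3% and 18.0% of all genes. Surf1, an assembly factor of complex IV, rose with Opti (0.89 ± 0.11), opposite in sign to the standard nuclear subunits of that complex. Of 16 regulators of biogenesis, 7 rose and 1 fell with Opti in WT, and 3 rose and 1 fell in KO. The coactivator Ppargc1a fell in KO (log2 fold change -0.83 ± 0.22 (SE), edgeR adjusted p = 0.0127) from at most 3.32 CPM. Of 19 genes for mobile electron carriers, 8 rose and 6 fell with Opti, and 5 rose and 2 fell in KO. Cycs, which encodes cytochrome c, fell with Opti in WT (-0.78, edgeR adjusted p = 0.00339) and rose in KO (0.58, edgeR adjusted p = 0.00309). Of 16 genes of the tricarboxylic acid cycle, 2 rose and 4 fell with Opti and 5 rose and 0 fell in KO. Of 9 carriers and porins tested, 1 rose and 3 fell with Opti and 4 rose and 0 fell in KO.

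Promoters of nuclear subunits were searched for 3 factors that are known to act on respiratory genes. RefSeq promoter sequences (GRCm38.p6, 250 bases before to 50 after the start) matched 65 of 82 nuclear members by symbol. A gene counted when any of its promoters matched. The NRF1 site CGCATGCG, which is its own reverse complement, was in 9 of 65 (13.8%) and in 2.07% of all 27025 genes with a promoter. The ETS site CCGGAAGT, read on both strands, was in 5 of 65 (7.69%) and in 4.31% of all. The YY1 site AAGATGGCG, also on both strands, was in 7 of 65 (10.8%) and in 1.64% of all. The promoters of Uqcr11 and Atp5k, 2 members called lower in WT_Opti, and of Ndufa9, which was not, are shown with the sites in capitals. Atp5k was not called without WT_Norm replicate 3, as given above. A link between sites and changes was not tested. Uqcr11 (chr10:80406772-80407071, minus strand) holds the ETS and then the NRF1 site, Atp5k (chr5:108434350-108434649, minus strand) the NRF1 site, and Ndufa9 (chr6:126849095-126849394, minus strand) the YY1 site. The 2 sites of Uqcr11 do not overlap. A match is a description of letters.
Uqcr11: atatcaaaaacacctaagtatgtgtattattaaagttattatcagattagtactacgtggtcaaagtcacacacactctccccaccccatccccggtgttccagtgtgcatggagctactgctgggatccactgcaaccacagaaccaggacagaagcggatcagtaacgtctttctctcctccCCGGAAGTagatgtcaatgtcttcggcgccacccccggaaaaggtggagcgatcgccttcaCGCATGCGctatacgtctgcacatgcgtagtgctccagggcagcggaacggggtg
Atp5k: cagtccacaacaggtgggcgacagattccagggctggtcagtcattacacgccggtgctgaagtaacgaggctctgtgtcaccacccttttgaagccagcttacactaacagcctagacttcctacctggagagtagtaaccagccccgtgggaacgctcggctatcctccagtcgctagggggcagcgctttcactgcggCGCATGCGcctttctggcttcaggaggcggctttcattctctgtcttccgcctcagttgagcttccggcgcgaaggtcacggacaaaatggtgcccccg
Ndufa9: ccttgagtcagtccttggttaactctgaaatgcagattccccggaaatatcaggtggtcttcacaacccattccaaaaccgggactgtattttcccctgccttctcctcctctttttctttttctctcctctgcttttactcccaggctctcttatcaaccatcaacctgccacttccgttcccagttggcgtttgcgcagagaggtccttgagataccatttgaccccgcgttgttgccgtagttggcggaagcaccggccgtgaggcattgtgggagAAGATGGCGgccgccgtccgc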

How the data were processed

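RNA-seq of 12 libraries in 4 groups of 3 was analyzed from the deposited gene table. According to the study's methods and the submitters' processing notes, stranded libraries of poly(A) RNA were sequenced, aligned with HISAT2 and assembled with StringTie. Tool versions and the genome build were not stated in those sources. The raw counts per gene and the FPKM values, which divide by transcript length and library size, were both deposited by the authors, and no replicates were pooled. Counts were used for every test and FPKM for an alternative and for levels between genes. Identifiers matched GENCODE M21 for 99.7% of the genes, and all 95 members overlapped their position there, so coordinates are GRCm38.

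Counts were tested with edgeR 4.0.16 in R 4.3.3. After filterByExpr, 19118 genes were scaled with TMM factors and fitted with 1 mean per group over all 12 libraries (quasi-likelihood test, two-sided, Benjamini-Hochberg over all genes, threshold 0.05). The biological coefficient of variation was 25.4%. On simulated counts with 200 genes changed 2-fold, 101 were recovered for WT_Opti against WT_Norm (18641 genes run) and 121 for KO against WT over both media (18625 genes run), with 3 and 4 unchanged genes called. Far fewer genes were changed there than were called in the data (20.3% higher and 19.6% lower in WT_Opti against WT_Norm). The adjusted threshold depends on that share, so the recovery does not measure sensitivity in the data. Alternatives were DESeq2 1.42.0, other scalings, no filter, fewer groups, FPKM with limma 3.58.1 after adding 0.1 or 1, the replicate block, the treatment entry, and leaving out single libraries. Leaving out WT_Norm replicate 3 with KO_Opti replicate 1, and KO_Norm replicate 2 with KO_Opti replicate 1, was chosen after seeing the data. Copies were aligned with Biopython to the reference transcripts.

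The members and the other gene lists were chosen with earlier results of these data known. Genes are named by rule: the mitochondrial genes, the 2 nuclear members of each complex with the largest change past the threshold in each comparison, isoform pairs, Sdha to Sdhd, Cspg4, and the 2 genes of each other list with the smallest adjusted p in WT_Opti against WT_Norm and in KO against WT over both media. Not every such gene is named. Tfam, Ppargc1a, Cycs, mt-Rnr1, mt-Rnr2, Ndufb2 and the marker genes were chosen after their values were seen.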

Additional observations from a re-analysis of the deposited data

Results flagged for a closer look

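The change with medium differed between the genotypes for 20 named members, by an edgeR test of the difference itself (KO change minus WT change, log2 scale). In complex I the difference was 1.33 for Ndufa11, 1.57 for Ndufa3, -0.53 for Ndufa9 and 1.71 for mt-Nd4l. In complex II it was 0.67 for Sdhd. In complex III it was 1.25 for Uqcr11 and 1.39 for Uqcrh. In complex IV and its isoforms it was 1.71 for Ndufa4, 2.05 for Cox7b, 1.35 for Cox7a2, 1.09 for Cox6b1, 1.52 for Cox6b2, 2.30 for Ndufa4l2 and -3.38 for Cox6a2. In complex V it was 2.16 for Atp5e, 0.76 for Atp5g3, 2.0 for Atp5mpl, 0.90 for Atp5j2, 2.32 for Atp5k and 2.20 for Atp5md. Of the nuclear members with transcripts of up to 1000 bases, 17 of 47 had a positive difference past the threshold, and of the longer ones 3 of 33, beside 162 of 1149 short genes and 14.4% of all genes. The part of transcript length in these differences was not tested. With the KO libraries grouped by the treatment entry, 8 of these 20 differences turned sign (Ndufa9, Atp5e, Atp5mpl, Ndufa4, Cox7b, Cox7a2, mt-Nd4l and Atp5md), 6 lost their call, and 6 kept direction and call (Sdhd, Uqcr11, Cox6a2, Cox6b1, Ndufa4l2 and Cox6b2).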

How the results depend on the processing

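Of 6809 recomputed values of named genes, 6249 stayed on their side of the threshold without a counted turn over 24 alternatives. Another 358 lost their call, 178 gained one and 24 turned direction. A turn was counted only where the main or the recomputed value was called. The 6249 therefore include uncalled values whose sign changed. All 24 turned under the treatment entry. In KO_Norm against WT_Norm the log2 fold change then was -0.026 for Ndufa9, 0.17 for Atp5e, -0.16 for Atp5b, -0.26 for Uqcrc1 and 1.15 for mt-Nd4l, and in KO_Opti against WT_Opti -0.22 for Atp5e. In KO_Opti against KO_Norm it was 0.37 for Ndufa9, -1.28 for Atp5e, 0.42 for Atp5b, 0.32 for Uqcrc1, 0.29 for Ndufa10, -1.03 for mt-Nd5 and -1.25 for mt-Nd4l. The difference between genotypes was 0.22 for Ndufa9, -0.40 for Atp5e, -0.39 for Atp5mpl, 0.72 for Atp5b, 0.52 for Uqcrc1, -0.13 for Ndufa4, -0.020 for Cox7b, -0.11 for Cox7a2, 0.43 for Sdhc, -0.79 for mt-Nd4l and -0.20 for Atp5md. The treatment entry gave 12 mitochondrial and 10 nuclear members in KO_Norm against WT_Norm, 1 mitochondrial member in KO_Opti against WT_Opti, and 0 and 15 for the difference between genotypes.

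Counts of members past the threshold moved as follows, and apart from the fewer libraries in some fits the cause was not tested. With only the groups compared in the fit, 4 mitochondrial members passed in WT_Opti against WT_Norm, 10 nuclear members in KO_Norm against WT_Norm and 1 mitochondrial member in KO_Opti against KO_Norm. Scaling by library size alone gave 16 nuclear members in KO against WT over both media and 10 in KO_Opti against KO_Norm, and FPKM gave 15 with either added constant in the former. In KO_Opti against KO_Norm, DESeq2 gave 9 nuclear members and no filter 3. DESeq2 size factors gave 3 mitochondrial members for the difference between genotypes, where FPKM gave 17 or 14 positive and 4 negative nuclear members. With KO_Norm replicate 2 and KO_Opti replicate 1 left out, 4 nuclear members passed in KO_Opti against WT_Opti, 0 in KO_Opti against KO_Norm, and 10 mitochondrial and 15 nuclear members for the difference between genotypes. With WT_Norm replicate 3 and KO_Opti replicate 1 left out, the nuclear counts were 7, 2 and 12, and 1 mitochondrial member passed in KO_Opti against KO_Norm.

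Leaving out 1 library at a time gave 0 to 1 mitochondrial and 11 to 27 nuclear members in WT_Opti against WT_Norm, 10 to 13 and 5 to 10 in KO against WT over both media, 0 to 1 and 8 to 24 in KO_Norm against WT_Norm, 9 to 13 and 4 to 19 in KO_Opti against WT_Opti, 1 to 7 and 2 to 15 in KO_Opti against KO_Norm, and 1 to 8 and 12 to 29 for the difference between genotypes. In the last, the count of 12 was without KO_Opti replicate 1.

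Replicate numbers did not pair the samples. Of 18 correlations between same-numbered libraries 3 were over 0.1, with a range of -0.198 to 0.151, and in 5 of the 18 the library correlated best with its own number. With the replicate block, 2 nuclear members were higher and 18 lower in WT_Opti against WT_Norm, and 8 and 2 in KO_Opti against WT_Opti, where 12 mitochondrial members passed.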
